A study of Homo sapiens with 36 samples.

Results

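The subject is the transcripts of 43 genes that copy DNA or control S phase, followed through a time course of the integrated stress response in cells with and without the transcription factor ATF4. The genes were taken by symbol from the 57665 genes of the deposited tables, from a list of replication genes chosen with earlier results of these data known, and all 43 were found, none with a repeated symbol. They hold origin recognition and licensing factors (10 genes), factors that switch on the helicase (6), DNA polymerase and primase subunits (7), the sliding clamp with its loader and the lagging-strand enzymes (7), enzymes of nucleotide supply (4), E2F and cyclin E genes (4), and chromatin and checkpoint genes (5).

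The cells were U2OS, a human osteosarcoma line, carrying Dmr-PERK, in which the kinase domain of mouse PERK is joined to a DmrB domain that pairs when a small-molecule dimerizer is added. Paired PERK phosphorylates eIF2α, which lowers general protein synthesis, raises translation of ATF4 and so starts the integrated stress response without unfolded protein. ATF4 knockout cells with Dmr-PERK and ATF4 wild-type cells with Dmr-PERK were each harvested before dimerizer (untreated, 0 h) and 2, 4, 8, 16 and 24 h into it. Every group had 3 wells, which gave 12 groups and 36 libraries of total RNA. Every group carried Dmr-PERK, and no wells left untreated for the later times were among the libraries, so the kinase, the ligand and the hours in culture cannot be told apart. The sources used here do not give a unit for the dose or say whether the knockout line is 1 clone.

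Replication begins in G1, when the origin recognition complex, CDC6 and CDT1 load the ring-shaped MCM2 to MCM7 helicase onto DNA. In S phase MCM10, CDC45 and the GINS complex turn that ring into a moving helicase, polymerases alpha, delta and epsilon copy the strands, and the clamp PCNA, placed by replication factor C, holds the polymerases on the template. Many of these genes are transcribed by E2F factors late in G1, with cyclin E acting in the same loop, so their transcripts are widely used as signs of entry into S phase. These were bulk samples, in which a smaller share of cells in S phase and less of a transcript in each cell cannot be told apart.

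Total counts per library ran from 8608783 to 16265056, and 4.3 to 5.86% of the counts were mitochondrial. ATF4 mRNA was still present in knockout cells, at 259 to 274 CPM (counts per 1000000, on scaled library sizes) untreated, against 310.1 to 323 CPM in untreated wild-type cells, and it rose in both with dimerizer, so the transcript level does not check the knockout. Of the mesenchymal markers, VIM, COL1A1, SPARC, RUNX2 and FN1 were present in every library, whereas COL1A2 had a median of 0.35 CPM; the defining markers of blood, liver and endothelium were near 0, and the epithelial marker EPCAM lay between 1.72 and 5.48 CPM. For the 3 untreated knockout libraries the counts did not match best the TPM (transcripts per 1000000) column of their own name, and the third such column had a correlation of only 0.497 with its own counts, so the values below come from the counts. The counts of untreated knockout well 2 matched best the TPM column named for well 1 (correlation 0.96, against 0.934 with their own column). Those of well 3 matched best the column named for well 2 (0.966). Those of well 1 also matched that column best (0.919, against 0.914 with their own column). A TPM fit without the column named for well 3 is therefore not known to leave out count well 3. GENCODE 29 places exons of another gene on the opposite strand across exons of 15 members, among them MCM2, MCM7, LIG1, RRM1, TYMS and CCNE2, and on the same strand for 7. No strand setting for the counting was given in the sources used here, so reads of such pairs may have been shared. Pseudogenes named after PCNA, RRM2, FEN1, RFC3 and RFC5 held at most 0.074% of their parent's counts.

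The promoters of the group were searched for the letters that E2F factors are known to bind. RefSeq windows on GRCh38.p14, from 250 bases before to 50 bases after each annotated start, were found for 38 members (all but POLD3, GINS4, MCM5, MCM4 and CCNE2). The letters TTTCCCGC, TTTGGCGC, TTTCGCGC or TTTGCCGC, on either strand, were present for 22 of the 38 genes (57.9%), against 1090 of all 27305 genes with windows (3.99%). The member windows were also richer in G and C, with a median of 66.7%, against 58.7% over all windows. The ATF4-type letters TGATGNAA were in 0 of the 48 member windows and in 3.62% of all 35116 windows. Stretches of 100 bases from 5 promoters are shown, read along the gene with the E2F-type letters in capitals: E2F1 and E2F2 as the factors of that family, POLE as a polymerase gene, PCNA for its fall at 4 h, and MCM6 because it carried the most matches of the 5 and rose least of all members in knockout cells at 24 h.
E2F1 promoter: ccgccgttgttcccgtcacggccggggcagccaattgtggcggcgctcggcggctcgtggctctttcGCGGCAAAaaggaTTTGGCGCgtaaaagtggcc
E2F2 promoter: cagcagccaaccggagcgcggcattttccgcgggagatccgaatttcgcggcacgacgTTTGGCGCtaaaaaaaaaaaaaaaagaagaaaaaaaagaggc
POLE promoter: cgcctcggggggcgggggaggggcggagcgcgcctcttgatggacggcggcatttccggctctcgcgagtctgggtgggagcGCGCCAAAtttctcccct
PCNA promoter: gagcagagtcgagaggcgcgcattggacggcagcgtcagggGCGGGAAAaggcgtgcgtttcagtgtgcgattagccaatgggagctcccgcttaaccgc
MCM6 promoter: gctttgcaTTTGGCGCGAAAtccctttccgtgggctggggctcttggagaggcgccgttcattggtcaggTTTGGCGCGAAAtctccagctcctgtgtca

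All 5 lie on the minus strand, E2F1 at chr20:33686386-33686485, E2F2 at chr1:23531234-23531333, POLE at chr12:132687343-132687442, PCNA at chr20:5126623-5126722 and MCM6 at chr2:135876504-135876603. The first 4 run up to the base before the RefSeq start, and the MCM6 stretch covers bases -160 to -61 from it. GENCODE 29 exons of the same gene cover 19 bases of the E2F1 stretch, 23 of the POLE stretch and 4 of the PCNA stretch, and none of the E2F2 or MCM6 stretches. E2F1 holds 2 matches, on opposite strands, while MCM6 holds 4 that overlap in pairs, since the run of capitals reads as TTTGGCGC on the one strand and TTTCGCGC on the other. In knockout cells at 24 h the median log2 change was 0.91 for the 22 genes with them and 1.15 for the 16 without.

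Before any dimerizer was added, the whole group was lower in knockout cells. All 43 members were lower in untreated knockout than in untreated wild-type cells at an adjusted p under 0.05 (edgeR quasi-likelihood test, Benjamini-Hochberg over the 19043 genes tested), where 11.9% of all tested genes were lower and 11.6% higher. Their median log2 difference was -0.48, a fold of 0.719, against a median of 0.00 over all tested genes, and it ran from -0.83 for MCM2, a subunit of the helicase ring, to -0.18 for POLD1, the catalytic subunit of polymerase delta. MCM2 stood at 56.6, 53.2 and 47.8 CPM in untreated knockout wells and at 96.9, 91.2 and 88.6 CPM in untreated wild-type wells. E2F1 had 34.9, 33.5 and 31.6 CPM in untreated knockout wells, against 52.6, 51.0 and 54.4 CPM in untreated wild-type wells, a log2 difference of -0.67 ± 0.06 (SE). For 42 members the knockout wells all lay below the wild-type wells, with POLA1 the exception. How often wells separated in this way over all tested genes was not counted. The 3 untreated knockout wells were not alike: the median member stood at -0.29, -0.48 and -0.54 in log2 relative to the untreated wild-type mean, the first well being the highest. Leaving out any one of the 6 untreated wells left 39 to 43 members lower. With limma on log2(TPM + 1) only 7 members were called lower when all TPM columns were used, and 37 without the third untreated knockout column. Because the untreated knockout TPM columns matched counts of other wells best, the 37 calls cannot be assigned to particular wells. The labels do not say that the wells were separate cultures, so the p-values measure the spread between wells.

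With dimerizer the median member moved in 3 phases in both genotypes. It rose a little by 2 h, fell back at 4 h, and then climbed, most of all between 8 and 16 h. In knockout wells the summed level of the 43 members was 2398, 2167 and 2053 CPM at 0 h. It was 2532 to 2625 CPM at 2 h, 2222 to 2373 CPM at 4 h and 2606 to 2617 CPM at 8 h. Later it was 4072 to 4104 CPM at 16 h and 4114, 4101 and 4164 CPM at 24 h. In wild-type wells it was 3135, 2925 and 2890 CPM at 0 h, 3053 to 3286 CPM at 2 h and 3007 to 3119 CPM at 4 h. Later it was 3287 to 3328 CPM at 8 h, 4022 to 4094 CPM at 16 h and 4134, 4139 and 4148 CPM at 24 h. In this sum the wild-type wells of 0, 2 and 4 h overlapped, so wells did not separate the early rise and fall in that genotype. The wells of the genotypes did not overlap in this sum from 0 to 8 h, knockout being lower, and they overlapped at 16 and 24 h.

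**Figure D1:**
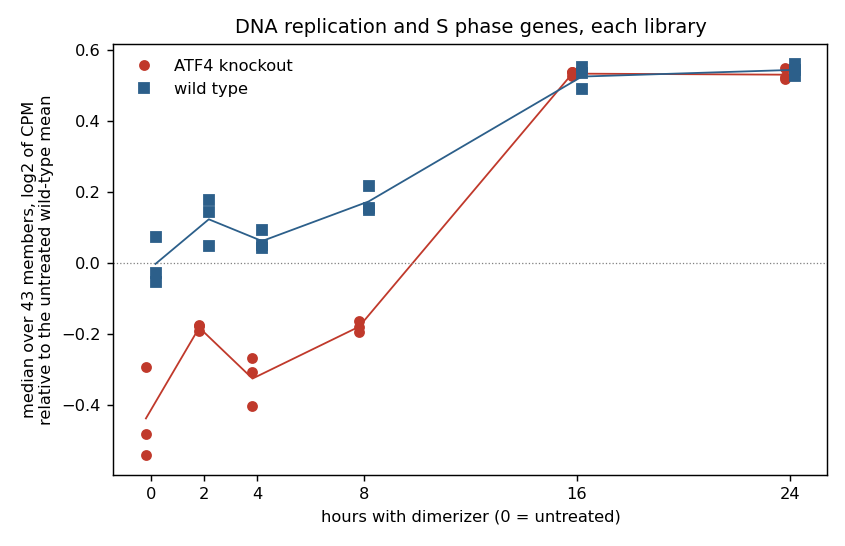
Median over the 43 members of the log2 CPM relative to the untreated wild-type mean (vertical axis) against hours with dimerizer (horizontal axis), 1 point per library, knockout in red circles and wild type in blue squares, with lines through the group means. Untreated knockout libraries lie at -0.54 to -0.29, and at 24 h the libraries of both genotypes lie between 0.52 and 0.56.

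In knockout cells 34 members were higher and 0 lower at 2 h than untreated (9.85% of all tested genes were higher and 8.5% lower), with a median log2 change of 0.24. At 4 h 15 were higher and 5 lower (22.1% and 20.3% of all genes), and at 8 h 26 were higher and 2 lower (30.7% and 31.1%). At 16 h 42 were higher and 0 lower (33% and 32.7%), with MCM6 not called, and at 24 h all 43 were higher (32.4% and 33%), with a median log2 change of 1.03. The called members were thus mostly higher at 16 and 24 h, while all called genes split about evenly. Apart from the wild-type step from 4 to 8 h and the difference of changes at 2 h, each count of 0 of the 43 members in a direction given here was also 0 at an unadjusted p under 0.05 in edgeR and with DESeq2. The count at 2 h was 19 without the third untreated knockout well, the lowest of the 3.

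In wild-type cells 18 members were higher and 1, PCNA, lower at 2 h (12.2% of all tested genes were higher and 10.4% lower), with a median of 0.14. At 4 h 14 were higher and 6 lower (23.6% and 21.1%), at 8 h 24 were higher and 6 lower (29.7% and 29.6%), and at 16 h 38 were higher and 2 lower (33.7% and 32.8%). At 24 h 36 were higher and 3 lower (33% and 32.4%), with a median of 0.59. LIG1, RRM2 and TK1 were the 3 that fell, and PCNA, TYMS, CCNE2 and GINS2 were not called. The early wild-type counts rested on few wells: at 2 h they came to 8 calls without the third untreated well and to 9 without the second 2 h well, and DESeq2 gave 12, while at 4 h there were 13 without the third untreated well.

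The steps between neighbouring times place the rise. From 2 to 4 h 1 member rose and 21 fell in knockout cells (17.6% and 16% of all tested genes), and 2 rose and 12 fell in wild-type cells (19.4% and 17.3%). From 4 to 8 h 26 rose and 1 fell in knockout cells (23.1% and 20.4%), and 17 rose and 0 fell in wild-type cells (18% and 18%; 1 fell at an unadjusted edgeR p under 0.05 and 0 with DESeq2). The step from 8 to 16 h was the large one. Then 40 rose and 0 fell in knockout cells (26.8% and 25.2%), with a median log2 step of 0.74, and 37 rose and 3 fell in wild-type cells (24.6% and 23.2%), with a median of 0.335. Between 16 and 24 h little moved, among the members and among all tested genes alike. Of the members, 3 were higher and 1 lower in knockout cells (7.35% and 10.2% of all tested genes), and 5 higher and 3 lower in wild-type cells (7.28% and 8.97%). Without scaling factors for library composition, an alternative added after the values were seen, the step from 4 to 8 h in knockout cells split 18 to 3, the step from 2 to 4 h in wild-type cells 0 to 17, and the change from 0 to 8 h in knockout cells 24 to 5.

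**Figure D2:**
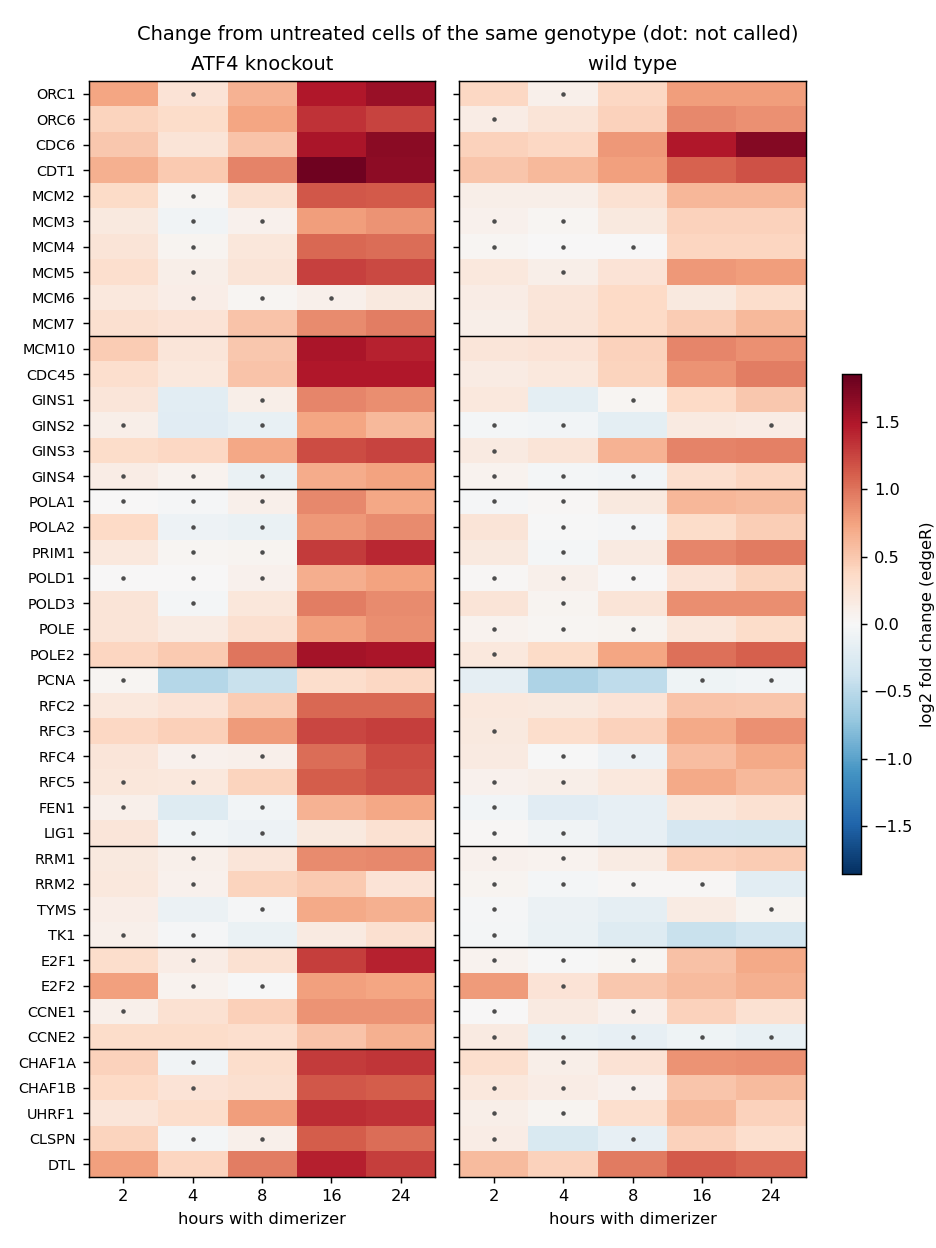
Log2 fold change from untreated cells of the same genotype (colour, red higher and blue lower) for each of the 43 members (down the page, with lines between the roles) at 2 to 24 h with dimerizer (across), knockout left and wild type right. Grey dots mark changes that were not called; at 24 h no square of the knockout panel carries a dot, and in wild type PCNA, TYMS, CCNE2 and GINS2 do.

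Among the licensing genes all 10 were higher at 24 h in each genotype, by a median log2 change of 1.18 in knockout and 0.70 in wild-type cells. Of all tested genes 32.4% were higher in knockout and 33% in wild-type cells. ORC1, the largest subunit of the origin recognition complex, reached 32.0, 31.0 and 32.3 CPM at 24 h in knockout wells, against 10.8, 9.79 and 10.9 CPM untreated. In wild-type wells it reached 27.3, 26.5 and 25.2 CPM at 24 h, against 17.0, 12.9 and 15.8 CPM untreated. The treated wells lay above the untreated wells in both genotypes, and the change was 1.59 ± 0.09 in knockout and 0.77 ± 0.08 in wild-type cells (log2 ± SE). CDC6, the loader of the helicase ring, had 146, 147 and 158 CPM at 24 h in knockout wells, against 53.5, 44.7 and 44.7 CPM untreated, and 212, 214 and 218 CPM at 24 h in wild-type wells, against 71.9, 64.2 and 61.1 CPM untreated. Its log2 changes of 1.68 ± 0.06 and 1.70 ± 0.05 were the largest of the group at 24 h in each genotype, and knockout wells stayed below wild-type wells at every time. CDT1, its partner in loading, changed most of all members at 16 h in knockout cells, by 1.80 ± 0.08, and by 1.09 ± 0.07 in wild-type cells.

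The helicase ring itself did not move as a unit. MCM2, MCM3, MCM4, MCM5 and MCM7 were higher at 24 h by 0.83 to 1.22 in log2 in knockout and by 0.39 to 0.78 in wild-type cells. MCM6, the remaining subunit of the same ring, stood at 74.9, 83.2 and 84.2 CPM at 24 h in knockout wells and at 76.7, 68.6 and 70.0 CPM in untreated knockout wells. These wells overlapped, and although the change of 0.18 ± 0.06 passed the test (edgeR adjusted p = 0.0048), it was the smallest of the 43. In wild-type cells MCM6 had 111, 112 and 113 CPM at 24 h, against 94.7, 90.5 and 83.7 CPM untreated, but its high point came at 8 h, with 115, 114 and 117 CPM, and it fell from there to 16 h by 0.18 on the log2 scale while 37 members rose. The log2 difference of knockout from wild-type cells in MCM6 was -0.66 ± 0.055 at 8 h and -0.465 ± 0.05 at 24 h.

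All 6 genes of helicase activation were higher in knockout cells at 24 h (32.4% of all tested genes were), and 5 were in wild-type cells (33%). MCM10, which helps start the unwinding, had 102, 88.8 and 95.3 CPM at 24 h in knockout wells, against 44.5, 33.1 and 30.9 CPM untreated. In wild-type wells it had 92.5, 97.7 and 93.4 CPM at 24 h, against 56.9, 52.2 and 48.5 CPM untreated. CDC45, a subunit of the active helicase, had 87.8, 89.1 and 94.2 CPM at 24 h in knockout wells, against 38.9, 30.3 and 29.5 CPM untreated, and 96.3, 97.2 and 94.5 CPM at 24 h in wild-type wells, against 53.2, 46.6 and 49.0 CPM untreated. At 24 h the wells of the genotypes overlapped for MCM10 and not for CDC45, and the changes were 1.43 ± 0.07 and 1.48 ± 0.06 in knockout and 0.85 ± 0.065 and 0.95 ± 0.05 in wild-type cells. The GINS subunits, which join CDC45 in the helicase, changed by 0.60 (GINS2) to 1.25 (GINS3) in knockout cells and by 0.13 (GINS2, not called) to 0.93 (GINS3) in wild-type cells.

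The 7 polymerase and primase genes were all higher at 24 h in both genotypes (32.4% of all tested genes in knockout and 33% in wild-type cells). Their median change was 0.87 in knockout and 0.59 in wild-type cells. POLE2, an accessory subunit of the leading-strand polymerase epsilon, had 62.5, 63.2 and 63.1 CPM at 24 h in knockout wells, against 21.9, 24.2 and 20.5 CPM untreated. In wild-type wells it had 61.5, 62.2 and 63.6 CPM at 24 h, against 27.8, 33.4 and 26.6 CPM untreated. By 8 h POLE2 was already up by 0.99 ± 0.08 in knockout cells, the most of any member at that time, and by 0.73 ± 0.08 in wild-type cells. POLE, the catalytic subunit of the same enzyme, had 152, 157 and 149 CPM at 24 h in knockout wells, against 90.0, 84.6 and 78.3 CPM untreated, and 147.5, 153 and 152 CPM at 24 h in wild-type wells, against 122, 117 and 118 CPM untreated. PRIM1, the primase subunit that makes the RNA primers, moved late and at once: it had 68.5, 63.1 and 62.4 CPM at 16 h in knockout wells, against 26.7, 27.7 and 27.9 CPM at 8 h. That step, 1.25 in log2, was the largest between 8 and 16 h in knockout cells, and its step of 0.73 was the largest in wild-type cells.

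The clamp and its loader parted early on. PCNA had 77.9, 79.5 and 86.5 CPM at 4 h in knockout wells, against 126, 116 and 111 CPM untreated, and 96.9, 100.3 and 104 CPM at 4 h in wild-type wells, against 160.1, 141 and 145 CPM untreated. The 4 h wells all lay below the untreated wells, and the log2 changes of -0.53 ± 0.05 in knockout and -0.57 ± 0.05 in wild-type cells were the lowest of the group at that time. By 24 h PCNA was at 150.1, 150.8 and 157 CPM in knockout wells, above their start by 0.38 ± 0.045, and at 149, 137 and 144 CPM in wild-type wells, where the change of -0.06 ± 0.04 was not called. RFC3, a subunit of the loader, did not dip: it had 33.0, 30.8 and 34.5 CPM at 4 h and 58.9, 58.4 and 59.2 CPM at 24 h in knockout wells, against 27.7, 23.8 and 21.9 CPM untreated. In wild-type wells RFC3 had 43.2, 41.9 and 40.7 CPM at 4 h and 56.4, 60.3 and 65.7 CPM at 24 h, against 36.3, 31.8 and 32.1 CPM untreated. The other loader subunits, RFC2, RFC4 and RFC5, were higher at 24 h by 1.06 to 1.21 in knockout and by 0.51 to 0.70 in wild-type cells. RFC4 did not rise early in wild-type cells, where it averaged 41.6, 41.7 and 39.3 CPM at 0, 4 and 8 h. FEN1, a lagging-strand enzyme, was also lower at 4 h than untreated. It averaged 69.6 against 82.5 CPM in knockout and 93.5 against 107.4 CPM in wild-type cells. LIG1, the ligase that seals the lagging strand, went opposite ways, with 65.5, 64.5 and 59.7 CPM at 24 h in knockout wells, against 55.9, 51.3 and 49.4 CPM untreated, and 54.3, 49.2 and 51.2 CPM at 24 h in wild-type wells, against 63.5, 65.5 and 64.7 CPM untreated. It rose by 0.28 ± 0.05 in knockout cells and fell by 0.325 in wild-type cells, and the difference of the changes was 0.61 ± 0.07 (edgeR adjusted p = 2.5e-09).

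Nucleotide supply was the role with the lowest median change at 24 h, 0.48 in knockout and -0.075 in wild-type cells. In wild-type cells 2 of its 4 genes fell, as did 32.4% of all tested genes. RRM1, the large subunit of ribonucleotide reductase, had 163, 156 and 161 CPM at 24 h in knockout wells, against 97.3, 84.2 and 80.7 CPM untreated, and 158, 159.5 and 165 CPM at 24 h in wild-type wells, against 122, 114 and 112 CPM untreated. RRM2, the small subunit that cycles with S phase, had 139.9, 144 and 142 CPM at 24 h in knockout wells, against 123, 121 and 115 CPM untreated, and 149, 153 and 158 CPM at 24 h in wild-type wells, against 179.6, 170.3 and 174 CPM untreated. Both subunits rose in knockout cells, by 0.88 ± 0.045 for RRM1 and 0.25 ± 0.04 for RRM2, but in wild-type cells RRM1 rose by 0.47 ± 0.04 and RRM2 fell by 0.19. RRM2 was also the member with the lowest step from 16 to 24 h in both genotypes, -0.24 in knockout and -0.22 in wild-type cells. TK1, thymidine kinase of the salvage route, had 100.8, 94.7 and 94.5 CPM at 24 h in knockout wells, against 81.6, 84.2 and 71.2 CPM untreated, and 93.2, 92.6 and 93.4 CPM at 24 h in wild-type wells, against 116, 116 and 122 CPM untreated. The level of TK1 at 24 h in knockout over wild-type cells was 0.05 ± 0.05 in log2, not called, while the change was 0.30 ± 0.05 in knockout and -0.34 ± 0.05 in wild-type cells. TYMS, thymidylate synthase, rose by 0.66 ± 0.04 in knockout cells and had a change of 0.04 ± 0.04 in wild-type cells, which was not called. With limma on log2(TPM + 1) and all TPM columns, the 24 h changes in knockout cells were -0.21 for RRM2 and -0.12 for TK1, neither called, and 0.09 (not called) and 0.25 (called) without the third untreated knockout column.

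Of the genes that control entry into S phase, E2F1 had 84.9, 90.2 and 92.1 CPM at 24 h in knockout wells, against 34.9, 33.5 and 31.6 CPM untreated, and 82.9, 89.7 and 85.2 CPM at 24 h in wild-type wells, against 52.6, 51.0 and 54.4 CPM untreated. Its change was 1.43 ± 0.05 in knockout and 0.71 ± 0.05 in wild-type cells. At 8 h it was still at 37.7, 41.8 and 40.8 CPM in knockout wells and at 55.1, 51.3 and 55.3 CPM in wild-type wells, so most of the rise came later. E2F2, another activator of the family, had an early rise and fall before a later rise. At 2 h it had 12.2, 18.5 and 14.4 CPM in knockout wells, against 9.66, 8.54 and 9.18 CPM untreated, and 20.2, 22.6 and 19.1 CPM in wild-type wells, against 13.4, 11.6 and 10.7 CPM untreated. These changes, 0.76 ± 0.12 and 0.79 ± 0.10, were the largest of the group at 2 h, and E2F2 fell back by 4 h, by 0.70 in knockout and 0.54 in wild-type cells. At 24 h E2F2 was again above untreated cells, by 0.735 in knockout cells, and it was called higher in wild-type cells too. Other members also rose by 2 h and fell back at 4 h. ORC1 averaged 10.5, 17.4 and 12.7 CPM at 0, 2 and 4 h in knockout, and 15.2, 20.2 and 16.4 CPM in wild-type cells. DTL averaged 30.3, 50.2 and 39.6 CPM in knockout, and 41.5, 61.8 and 56.0 CPM in wild-type cells. CCNE2, one of the cyclins that drive CDK2 into S phase, had 21.1, 16.8 and 19.9 CPM at 24 h in knockout wells, against 15, 12.2 and 10.1 CPM untreated. In wild-type wells it had 16.8, 14.1 and 15.5 CPM at 24 h, against 19.3, 16.1 and 15.1 CPM untreated, and these wells overlapped. The change of CCNE2 was 0.66 ± 0.105 in knockout and -0.13 ± 0.10 in wild-type cells, the second not called. CCNE1, its close relative, rose by 0.83 ± 0.06 in knockout and 0.29 ± 0.06 in wild-type cells.

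The chromatin and checkpoint genes were all higher at 24 h in both genotypes (32.4% of all tested genes in knockout and 33% in wild-type cells). UHRF1, which brings maintenance methylation to newly copied DNA, had 161, 153 and 153 CPM at 24 h in knockout wells, against 70.8, 59.3 and 56.7 CPM untreated, and 121, 122 and 119.7 CPM at 24 h in wild-type wells, against 96.5, 84.3 and 86.7 CPM untreated. Its change was 1.34 ± 0.05 in knockout and 0.43 ± 0.05 in wild-type cells. DTL, which targets CDT1 for destruction in S phase, was up early, by 0.75 ± 0.08 at 2 h in knockout and 0.58 ± 0.065 in wild-type cells, and by 1.28 ± 0.07 and 1.08 ± 0.06 at 24 h. The chromatin assembly subunits CHAF1A and CHAF1B and the checkpoint mediator CLSPN rose at 24 h by 1.03 to 1.33 in knockout and by 0.31 to 0.845 in wild-type cells.

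**Figure D3:**
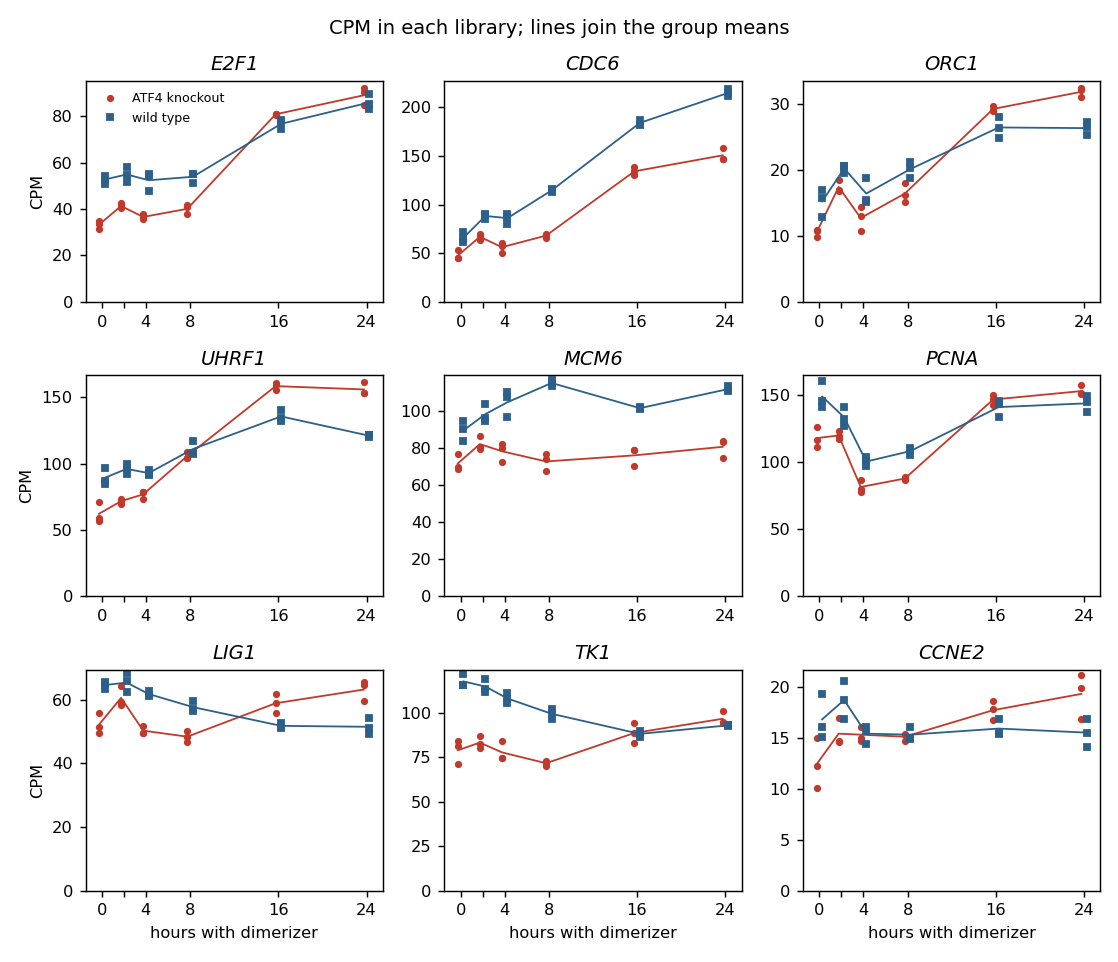
CPM (vertical axis, from 0) against hours with dimerizer (horizontal axis) for 9 members, with each library as a point, knockout in red circles and wild type in blue squares, and lines through the group means. E2F1 and ORC1 rise after 8 h in both genotypes. ORC1 is also above its start at 2 h, at 17.4 against 10.5 CPM on average in knockout and 20.2 against 15.2 CPM in wild type. CDC6 stays lower in knockout throughout. MCM6 stays near its start in knockout (72.9 CPM on average at 8 h and 80.8 CPM at 24 h) and is higher in wild type (115 and 112 CPM). PCNA dips at 4 h, and LIG1 and TK1 fall in wild type and rise in knockout.

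The question of the design, whether the change with dimerizer differs without ATF4, was tested by subtracting the wild-type change from that in knockout cells. At 2 h 0 members were called by the edgeR test (0.0105% of all tested genes were higher and 0.289% lower), with 14 higher and 0 lower at an unadjusted p under 0.05, and 1 was called by DESeq2. At 4 h 1 was called, UHRF1, which was higher (0.887% and 2.39%), and at 8 h 10 were higher and 3, CDC6, MCM6 and E2F2, lower (11.3% and 6.99%). At 16 h 38 were higher and 0 lower (16.7% and 11%), and at 24 h 37 were higher and 0 lower (17.7% and 12.1%), with a median log2 difference of 0.45. CDC6, MCM6, POLA1, POLD3, E2F2 and DTL were the 6 not called at 24 h. The difference at 24 h was largest for UHRF1, at 0.90 ± 0.07, followed by ORC1 at 0.82 ± 0.12 and CCNE2 at 0.79 ± 0.15. It was 0.64 ± 0.07 for TK1, 0.58 ± 0.10 for MCM10 and 0.53 ± 0.06 for POLE. The count at 8 h was 8 without the second wild-type 8 h well and 6 without the third untreated knockout well, and with limma on log2(TPM + 1) and all TPM columns it was 1 at 8 h, 4 at 16 h and 8 at 24 h, against 5, 28 and 27 without the third untreated knockout column.

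This difference uses the untreated wells that also set the gap between the genotypes at 0 h, so the levels are given beside it. Knockout cells were compared with wild-type cells at each later time, a comparison added after the values were seen. At 2 h 0 members were higher and 40 lower in knockout cells (10.2% and 11.3% of all tested genes), at 4 h 0 and 41 (12.8% and 14.3%), and at 8 h 0 and 37 (20.1% and 14.5%). At 16 h only 6 were higher and 6 lower (21.5% and 14.7%), and at 24 h 9 were higher and 10 lower (22.4% and 15.6%), with 24 not called and a median log2 difference of 0.02. The larger change in knockout cells thus went with a lower start, and at 24 h the members lay on both sides of wild type.

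The members that did differ at 24 h fell on both sides, as did all tested genes (22.4% higher and 15.6% lower). Whether the shares of the members differ from these was not tested. ORC1 (0.27), MCM4, POLD1, RFC2, LIG1 (0.29), TYMS (0.34), CCNE1 (0.26), CCNE2 (0.32) and UHRF1 (0.36) were higher in knockout than in wild-type cells, in log2. ORC6, CDC6 (-0.51), MCM2 (-0.32), MCM6, MCM7, GINS4, POLD3, RRM2, E2F2 (-0.31) and DTL were lower. UHRF1 was the highest of the group at 24 h and CDC6 the lowest, while their untreated differences were -0.54 ± 0.05 and -0.48 ± 0.06.

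**Figure D4:**
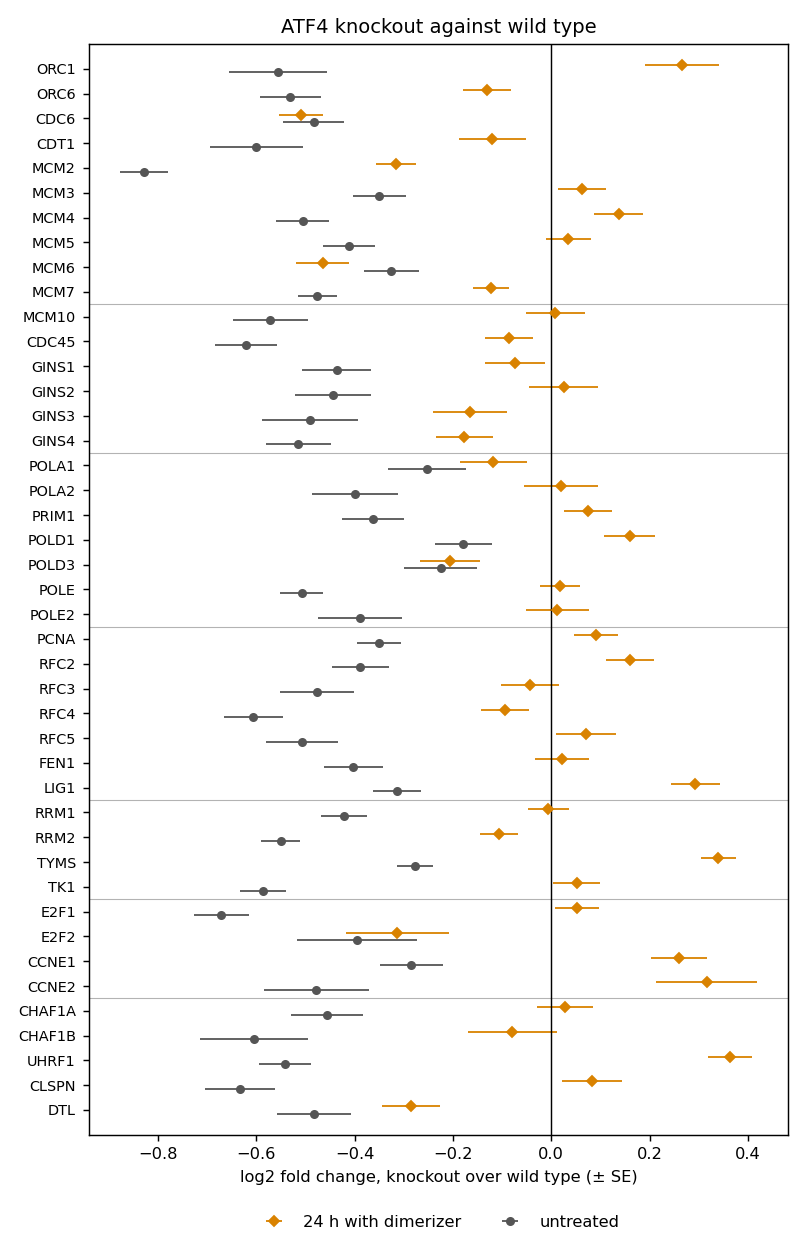
Log2 fold change of knockout over wild-type cells (horizontal axis, ± SE) for each of the 43 members (down the page, with lines between the roles), at 24 h with dimerizer (orange diamonds) and untreated (grey circles). All untreated values are below 0, from -0.83 for MCM2 to -0.18 for POLD1, and the 24 h values spread around 0, from -0.51 for CDC6 to 0.36 for UHRF1.

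On a scale per transcript length the members differed widely in abundance. In the deposited TPM at 24 h, TYMS was the most abundant at 354 ± 8.76 TPM in knockout and 279 ± 10.2 TPM in wild-type cells (SD, n = 3), and E2F2 the least at 4.53 ± 0.456 and 5.8 ± 0.991 TPM. MCM7 had 192 ± 6.35 and 205 ± 5.27 TPM, and PCNA 181 ± 2.1 and 172 ± 6.44 TPM, knockout first in each pair, whereas ORC1 had 14.7 ± 0.29 and 12.3 ± 0.463 TPM. The highest levels thus belonged to an enzyme of nucleotide supply, a helicase subunit and the clamp. Together the 43 members made up 0.294 to 0.296% of all TPM in knockout and 0.288 to 0.294% in wild-type libraries at 24 h, against 0.217 to 0.233% in untreated wild-type libraries.

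Other genes of the same processes were counted from lists chosen by function. Of 30 further replication factors, 28 were higher and 2 lower at 24 h in knockout cells (32.4% and 33% of all tested genes) and 26 and 2 in wild-type cells (33% and 32.4%). In untreated knockout against untreated wild-type cells 0 were higher and 22 lower (11.6% and 11.9%). POLE3, a small subunit of polymerase epsilon, rose by 1.31 ± 0.04 in knockout and 1.02 ± 0.04 in wild-type cells. POLD4, the small subunit of polymerase delta, was the clear exception, falling by 1.35 in knockout and 1.27 in wild-type cells. RFC1, the large subunit of the clamp loader, rose less in knockout (0.935 ± 0.04) than in wild-type cells (1.48 ± 0.04), the reverse of RFC2 to RFC5, with a difference of -0.545 ± 0.05 (edgeR adjusted p = 3.6e-11).

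Of 13 further genes of nucleotide supply, 10 were higher and 2 lower at 24 h in knockout cells (32.4% and 33% of all tested genes), and 7 and 3 in wild-type cells (33% and 32.4%). Untreated knockout against untreated wild-type cells had 1 higher, RRM2B (0.15 ± 0.04 in log2), and 8 lower (11.6% and 11.9%). CAD, which starts pyrimidine synthesis, rose by 1.25 ± 0.04 in knockout and 0.74 ± 0.04 in wild-type cells. CTPS1, which makes CTP, went the other way, rising by 0.37 ± 0.03 in knockout and 1.18 ± 0.03 in wild-type cells, with a difference of -0.81 ± 0.04 (edgeR adjusted p = 3.4e-19). RRM2B, the small reductase subunit used outside S phase, fell in both, by 0.30 in knockout and 0.10 in wild-type cells.

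Of 23 further chromatin, repair and checkpoint genes, 19 were higher and 1 lower at 24 h in knockout cells (32.4% and 33% of all tested genes) and 18 and 2 in wild-type cells (33% and 32.4%). For untreated knockout against untreated wild-type cells 0 were higher and 17 lower (11.6% and 11.9%). BRCA1 and BRCA2, of homologous recombination, rose by 1.35 ± 0.06 and 1.36 ± 0.07 in knockout and by 1.34 ± 0.06 and 1.39 ± 0.06 in wild-type cells. The differences of the changes, 0.01 ± 0.09 and -0.03 ± 0.095, were not called, and the log2 difference of knockout from wild-type cells at 24 h was -0.49 and -0.32. In the test of the difference of changes, DNMT1, MSH6 and HELLS were among the genes called higher, and ASF1A was called lower. WEE1, the kinase that restrains CDK activity, fell by 0.715 in knockout and 0.82 in wild-type cells.

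Of 21 genes of the G1 to S switch, which act in opposing directions, 13 were higher and 4 lower at 24 h in knockout cells (32.4% and 33% of all tested genes) and 12 and 8 in wild-type cells (33% and 32.4%). Between the untreated genotypes 4 were higher in knockout, CCND1, CDK6, RBL2 and CDKN1A, and 7 lower (11.6% and 11.9%). CDC25A, a phosphatase that turns on CDK2, rose by 1.61 ± 0.07 in knockout and 0.85 ± 0.065 in wild-type cells. The pocket protein RBL2 fell by 1.10 and 0.93, and the CDK inhibitor CDKN1A fell by 0.68 and 0.40, knockout first in each pair. RBL1, another pocket protein, averaged 35.4 CPM untreated and 67.6 CPM at 24 h in knockout, and 44.1 and 77.0 CPM in wild-type cells. The CDK inhibitor CDKN1B averaged 23.4 and 31.1 CPM in knockout and 24.3 and 34.2 CPM in wild-type cells. SKP2 averaged 38.3 and 35.4 CPM in knockout and 51.0 and 28.3 CPM in wild-type cells. CCND1, cyclin D1, fell by 0.16 in knockout and 0.71 in wild-type cells and was already higher by 0.36 ± 0.03 in untreated knockout than in untreated wild-type cells, where all 43 replication genes were lower.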

How the data were processed

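Expression was measured by RNA sequencing of total RNA from U2OS Dmr-PERK cells, 36 libraries in 12 groups of 3 wells. Per the submitters' processing notes, reads went through FastQC 0.11.5 and Salmon 0.9.1, and the build was GRCh38. Neither the annotation release nor the strand setting was given in the sources used here. In all, the authors deposited 2 gene tables, one of expected counts and one of TPM. In each library 72.0 to 78.9% of the expected counts were whole (tolerance 1e-06), and they were rounded before fitting. The TPM deposited by the authors had 0.102292 as the lowest value of each column. Each library's counts were set against every TPM column over 10521 genes, and 33 of 36 matched best the column of their own name, all but the 3 from untreated knockout wells.

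Counts were filtered with filterByExpr, which left 19043 genes including all 43 members, and scaled by TMM (factors 0.975 to 1.02). A mean per group was fitted to all 36 libraries with edgeR 4.0.16 in R 4.3.3 (quasi-likelihood F-test). P values were adjusted by Benjamini-Hochberg over all tested genes in each contrast and called under 0.05. Standard errors are the log2 change divided by the root of F. Contrasts were each time against 0 h, each step between times, the difference of the changes (knockout minus wild type), and knockout against wild type. Alternatives were RLE scaling, no scaling factors, no filter, only the groups of the contrast, a replicate block, DESeq2 1.42.0, limma 3.58.1 on log2(TPM + 1) and log2(TPM + 0.1), and each library left out.

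The members, lists and tests were chosen with earlier results of these data known. Values in every library are given for the member of each role with the largest 24 h change in knockout cells, for the one with the largest difference of changes, and for members called against most others at 24 h. From the further lists, the genes with the smallest adjusted p in each direction at 24 h were candidates, and those described were picked from them after their values were seen. POLD2, NME1 and DNMT1, first by that rule among the rising genes of their lists in knockout cells, were not described in detail. MCM2, MCM6, PCNA, PRIM1, CDT1, E2F2, TYMS, DTL and CDKN1B, and 2, 4, 8 and 16 h values of single genes, were chosen after their values were seen. So were knockout against wild type at 2 to 24 h and the setting with no scaling factors. Replicate pairs differed by more than counting noise (chi-square per degree of freedom 1.34 to 2.63 over 36 pairs), so none was counted as a duplicate. Promoter sequences are from RefSeq on GRCh38.p14, and gene positions from GENCODE 29.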

Additional observations from a re-analysis of the deposited data

Results flagged for a closer look

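These results are given here because the change with dimerizer differed between the genotypes in the test of that difference (edgeR quasi-likelihood, knockout change minus wild-type change). The number of members called in that test was 1 at 4 h (higher; 0.887% of all tested genes were higher and 2.39% lower). It was 13 at 8 h (10 higher and 3 lower; 11.3% and 6.99%), or 6 without the third untreated knockout well. It was 38 at 16 h (0 lower; 16.7% and 11%) and 37 at 24 h (0 lower; 17.7% and 12.1%). For the member of each role with the largest difference of changes, the log2 difference at 24 h was 0.90 for UHRF1, 0.82 for ORC1, 0.79 for CCNE2, 0.64 for TK1, 0.61 for LIG1, 0.58 for MCM10 and 0.53 for POLE. For LIG1 and TK1 the change was upward in knockout and downward in wild-type cells. The same untreated wells set the lower start of knockout cells (0 members higher and 43 lower). By construction the difference is the log2 gap of knockout from wild-type cells at 24 h less that at 0 h. The gap at 0 h was -0.54 for UHRF1, -0.56 for ORC1, -0.48 for CCNE2 and -0.31 for LIG1. It was -0.59 for TK1, -0.57 for MCM10 and -0.51 for POLE. At 24 h the first 4 were called higher in knockout than in wild-type cells, and TK1, MCM10 and POLE were not called. The cause of the lower start was not tested.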

How the results depend on the processing

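Counts of members called are given here; the cause of each change was not tested unless a value shows it. With limma on log2(TPM + 1) or log2(TPM + 0.1) and all TPM columns, which gave the same counts, the members called came to 2, 9 and 16 at 2, 4 and 8 h in knockout cells and to 2, 7 and 16 in wild-type cells. The difference of changes had 0, 1, 4 and 8 calls at 4, 8, 16 and 24 h, and untreated knockout against wild type had 7. The steps had 7 (2 to 4 h), 6 (4 to 8 h) and 0 (16 to 24 h) in knockout cells and 2, 4, 18 and 0 in wild-type cells, in order of time. Knockout against wild type had 7, 18, 17, 3 and 4 from 2 to 24 h. With log2(TPM + 1) and without the third untreated knockout column, there were 41 calls at 24 h in knockout and 38 in wild-type cells, 37 untreated, and 28 and 27 for the difference at 16 and 24 h. That setting still gave 7 and 13 at 2 and 4 h in wild-type cells, 5 for the difference at 8 h, 14 (4 to 8 h) and 1 (16 to 24 h) for knockout steps, 8 (2 to 4 h) and 1 (16 to 24 h) for wild-type steps, and 25, 6 and 8 for knockout against wild type at 2, 16 and 24 h.

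Among the count fits, DESeq2 gave 12 calls at 2 h in wild-type cells, 8 for the wild-type step from 2 to 4 h and 1 for the difference at 2 h. With no filter there was 1 for the difference at 2 h and 5 for the wild-type step from 16 to 24 h. With only the groups of the contrast there were 0 for the difference at 4 h and 7 for the knockout step from 16 to 24 h. RLE scaling split the wild-type step from 16 to 24 h 7 higher to 2 lower. Wells of the same replicate number correlated weakly: 0 of 66 group pairs had every correlation over 0.1, and the highest correlation was 0.069. With 3 numbers to match, 20 of 36 libraries correlated best with their own number, so a weak pairing was not excluded. With the numbers as a replicate block there were 43 calls at 24 h in knockout cells and 37 for the difference. No count moved by over 1.5 times with that block.

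With 1 library left out at a time, the calls ranged from 19 to 35 at 2 h in knockout cells, 8 to 22 at 2 h and 13 to 18 at 4 h in wild-type cells, and 0 to 4, 0 to 2 and 6 to 15 for the difference at 2, 4 and 8 h. They ranged from 2 to 4 for the knockout step from 16 to 24 h (2 without the second 24 h well), and for wild-type steps from 8 to 14 (2 to 4 h; 8 without the second 4 h well), 10 to 15 (4 to 8 h; 10 without the third 8 h well and 11 without the first 4 h well) and 4 to 7 (16 to 24 h; 4 without the second and 5 without the third 24 h well). At 24 h they ranged from 42 to 43 in knockout cells and 36 to 38 for the difference.

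Called values changed sign only in the TPM fits. With log2(TPM + 1) and log2(TPM + 0.1), in that order, knockout changes were GINS1 -0.025 and -0.024, RRM2 -0.187 and -0.188, TYMS -0.064 and -0.065, PRIM1 -0.055 in both and UHRF1 -0.015 and -0.014 at 2 h. They were CDC6 -0.006 and -0.005, RRM2 -0.395 and -0.398 and POLE -0.057 and -0.058 at 4 h, and MCM2 -0.033 in both, CHAF1A -0.033 and -0.035 and RRM2 -0.072 in both at 8 h. TK1 was -0.212 and -0.213 at 16 h and -0.118 in both at 24 h, and RRM2 was -0.206 and -0.207 at 24 h. The difference at 8 h was -0.064 for MCM7 and -0.112 for TYMS in both. GINS3 was -0.005 at 4 h in wild-type cells, GINS4 was -0.004 and -0.003 at 24 h in wild-type cells, and GINS4 in knockout against wild type at 24 h was 0.053 and 0.055; these reversals of GINS3 and GINS4 were the only ones left without the third untreated knockout column.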
